A study of Caenorhabditis elegans with 4 samples.

Results

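The cuticlin and cuticlin-like genes of Caenorhabditis elegans were taken from the deposited gene table by name, as every row called cut or cutl followed by a number. The rule found 34 of 37812 rows, and 22 of the 34 had been tested by the authors among 10703 tested rows. The cutl-1 gene shares its row with a piRNA gene (21ur-14700 and cutl-1 together, 0.0135 FPKM in control embryos and listed at 0 after sig-7 RNAi), so that row was not among the 34. The rule itself uses names, but the family was chosen by its lower FPKM values and deposited q-values in this same comparison, so the counts below describe it and are not independent evidence of a direction.

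Both groups were embryos of the wild-type strain N2, spanning stages from 1 cell to 350 cells and released by bleaching from adults grown for 72 h as a synchronized population. The control group (2 libraries) is named for L4440, the empty RNAi vector, and the other group (2 libraries) for RNAi against sig-7, labelled as a loss of sig-7, which encodes a nuclear cyclophilin. No other allele or agent is named for either group, each library mixes embryos of many ages, and whether the paired libraries of a group are separate cultures is not stated in the labels. The comparison asks how depletion of sig-7 bears on embryonic transcripts, and sig-7 itself went from 39.8 to 8.72 FPKM, so 21.9% of the control level was left.

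Cuticlins are proteins of the nematode cuticle, first known as the part that stays insoluble when the collagens are dissolved. Most carry a zona pellucida (ZP) domain, a polymerization module found in secreted matrix proteins that are made as membrane-anchored precursors, cut near the cell surface and assembled into filaments. The epidermis (hypodermis and seam cells) secretes the first cuticle late in embryogenesis, after the stages sampled here, and several cuticlins are known from the alae, the lateral ridges of larval cuticles.

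Transcripts of the family were low in control embryos and lower after sig-7 RNAi. Values are FPKM (fragments per kilobase of transcript, scaled to the mapped fragments of a library), which allows levels to be compared between genes, and the authors deposited 1 pooled value per group, so no value for a single library and no spread can be given. Over the 34 rows the summed level was 75.0 FPKM in control embryos against 14.6 FPKM after sig-7 RNAi, or 19.5% of the control. A gene is said to have fallen or risen where its q-value in the authors' deposited table was under 0.05. By that rule 13 of the 22 tested cuticlin genes fell, 0 rose and 9 did not pass, against a background of 17.3% of all tested genes that fell, 11.2% that rose and 28.4% that changed in either direction. The 1 tested cuticlin with the higher value in sig-7 RNAi, cutl-15, had an unadjusted p of 0.196 by Cuffdiff. Of the 22, 21 had the lower value in sig-7 RNAi, as had 51.4% of all tested genes. Among other tested genes whose control level lay within the range of the tested cuticlins (0.260 to 14.97 FPKM), 20.7% fell. Because the family was chosen on this contrast, the distance from these backgrounds is not read as a result.

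The test status bears on these counts. No untested row of the table exceeded 0.457 FPKM, and 14 of the 22 tested cuticlins were above that level in the control alone, so they entered the test through the group in which they were high. Of these 14, 7 fell, against 30.8% of the 1616 tested rows above that level in the control alone. The 7 cuticlins above it in both groups did not depend on one group in that way. Of them 6 fell, against 15.7% of the 8545 tested rows above it in both groups. They too belong to the family chosen on this contrast, so that distance is not read as a result either. With a pseudocount of 1 FPKM, the median log2 ratio (sig-7 RNAi over control) was -0.76 over the 22 tested cuticlins and -0.03 over all tested genes. That scale understates changes of low genes. The FPKM values of the whole table summed to 1.69 times as much in sig-7 RNAi as in the control, and dividing that factor out would make each of the 13 falls larger.

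**Figure D1:**
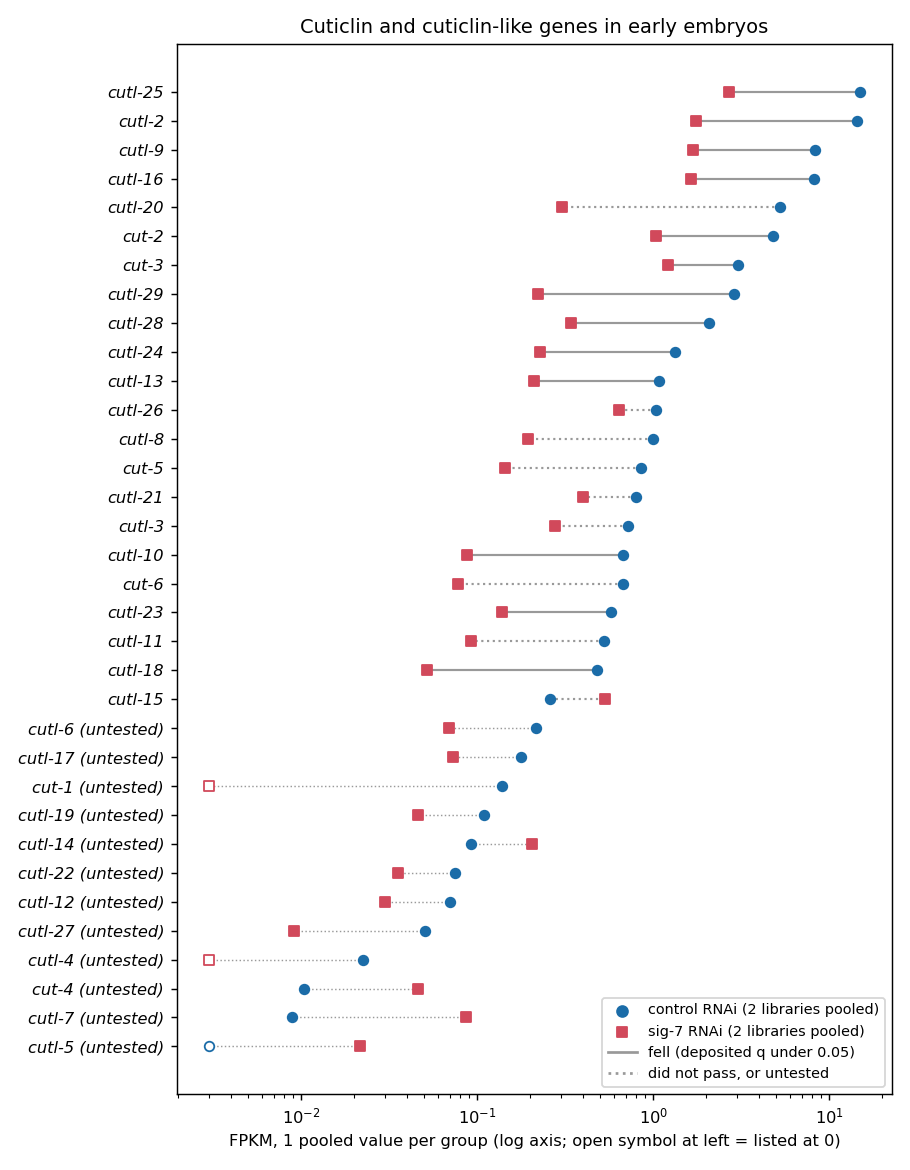
FPKM of the 34 cuticlin and cuticlin-like genes in control RNAi (circles) and sig-7 RNAi (squares), each 1 pooled value of 2 libraries, on a log axis, ordered by control level. Solid lines join the 13 genes that fell and dotted lines the others, and open symbols at the left edge are values listed at 0; 21 of the 22 tested genes lie to the left in sig-7 RNAi, and cutl-15 lies to the right.

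The 4 most abundant cuticlins held 61.3% of the family's summed FPKM in control embryos, and all 4 fell. All 4 are cuticlin-like genes. cutl-25 (chromosome III, 3042718 to 3047117 on ce10) went from 14.97 to 2.70 FPKM, 5.54-fold lower, with q = 6.5e-13 in the authors' deposited table. cutl-2 (chromosome II, 9721780 to 9724467) was at 14.5 and 1.75 FPKM, 8.27-fold lower, with q listed as 0 in the authors' deposited table. A q listed as 0 lies below 1.37e-14, the smallest value above 0 among the tested rows.

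The next pair had nearly the same levels as each other in both groups. cutl-9 (chromosome II, 10622246 to 10626375) went from 8.34 to 1.69 FPKM, 4.94-fold lower, with q = 9.64e-12 in the authors' deposited table. cutl-16 (chromosome II, 6441397 to 6443566) went from 8.18 to 1.64 FPKM, 4.98-fold lower, with q = 3.77e-10 in the authors' deposited table. These 4 genes kept ranks 1 to 4 of the family in the same order in both groups. They are moderate transcripts in the embryo as a whole: in the control cutl-25 exceeded 57.0% of all tested rows and cutl-16 exceeded 44.1%. In sig-7 RNAi cutl-25 exceeded 36.3% and cutl-16 exceeded 31.3%.

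Of the 6 genes with the original cuticlin name, 2 fell, 2 were tested and did not pass, and 2 were untested. CUT-2 differs from the rest of the family in having no ZP domain, being built instead of short hydrophobic repeats. Its gene has the shortest annotated coding sequence of the 34, with 215 codons in 2 exons. cut-2 (chromosome V, 13415087 to 13415923) fell from 4.83 to 1.04 FPKM, 4.62-fold, with q = 0.000422 in the authors' deposited table. The median fold over the 13 genes that fell was 5.54, so cut-2 was not set apart by its fold.

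cut-3 and cut-5 encode ZP-domain cuticlins needed for the alae of the first larval stage, and cut-5 is needed for dauer alae too. cut-3 (chromosome II, 8445219 to 8446779) fell from 3.05 to 1.21 FPKM, with q = 0.00937 in the authors' deposited table. Its 2.52-fold difference was the smallest of the 13. cut-5 (chromosome X, 10333954 to 10338129) was at 0.852 and 0.144 FPKM, 5.90-fold apart, and did not pass, with q = 0.0711 in the authors' deposited gene table. Its isoform that carried all of the control signal passed in the authors' deposited isoform table (q = 0.0473). The call for cut-5 therefore turns on which of the deposited tables is read, while its values are the same to 3 digits.

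cut-1 and cut-6 encode cuticlins known from the cuticle of the dauer, a resistant larval stage that these embryos had not reached. cut-1 was untested, with 0.138 FPKM in control embryos and a listed 0 after sig-7 RNAi. cut-6 was tested and did not pass, at 0.672 and 0.0774 FPKM. cut-4 was untested, at 0.0103 and 0.0460 FPKM, among the lowest values of the family.

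The other 7 genes that fell were cuticlin-like genes with control levels between 0.477 and 2.87 FPKM. cutl-29 (chromosome X, 8262510 to 8270872) had the largest fold of the 13, from 2.87 to 0.222 FPKM, 12.9-fold lower, with q = 5.43e-06 in the authors' deposited table. cutl-28 (chromosome IV, 684505 to 688143) was at 2.07 and 0.341 FPKM, 6.07-fold lower, with q = 1.16e-06 in the authors' deposited table. All 7 ended at 0.341 FPKM or less in sig-7 RNAi, below the level at which every row of the table had been tested. cutl-24 went from 1.33 to 0.228 FPKM, 5.83-fold lower, and cutl-13 from 1.08 to 0.209 FPKM, 5.17-fold lower. The remaining 3 started below 1 FPKM, with cutl-10 at 0.676 and 0.0872 FPKM, cutl-23 at 0.578 and 0.137 FPKM, and cutl-18 at 0.477 and 0.0519 FPKM. The q-values of cutl-24, cutl-23, cutl-18 and cutl-10 in the authors' deposited table lay between 0.0108 and 0.0315, so these 4 calls are lost at a threshold of 0.01.

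Across all 13 genes that fell, sig-7 RNAi left between 7.74% (cutl-29) and 39.7% (cut-3) of the control level, with a median of 18.1%. The control levels of the same genes spanned 0.477 to 14.97 FPKM. Folds were thus spread over a narrower range than levels, and both abundant and scarce members were among the larger falls: cutl-2 was 8.27-fold and cutl-18 was 9.20-fold lower.

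**Figure D2:**
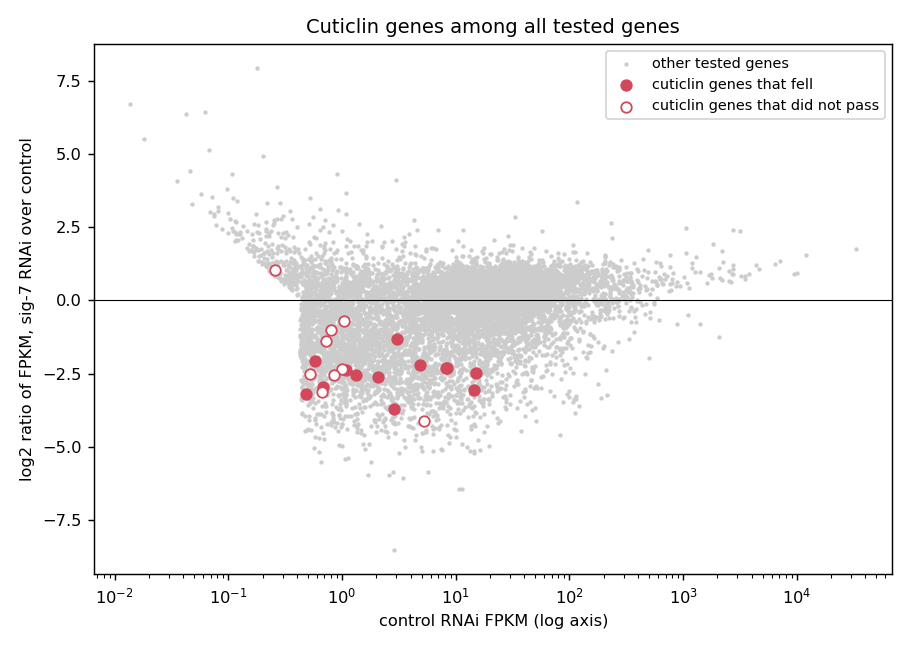
Log2 ratio of FPKM (sig-7 RNAi over control) against control FPKM on a log axis, for the tested genes above 0 in both groups (grey) and the 22 tested cuticlins (red, filled where the gene fell). The cuticlins lie below 0 except cutl-15, and the straight left edge of the grey points reflects that rows low in both groups were untested.

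Of the 9 tested cuticlins that did not pass, 5 were at least 4-fold lower in sig-7 RNAi, as were 12 of the 13 that fell. These 5 were cutl-20, cut-6, cut-5, cutl-11 and cutl-8. cutl-20, the fifth highest of the family in control embryos, had 5.23 FPKM there and 0.302 FPKM after sig-7 RNAi, a 17.3-fold difference with q = 0.855 in the authors' deposited table. cut-6 was 8.68-fold apart with q = 0.999935 in the authors' deposited table. cutl-8 was at 0.996 and 0.194 FPKM, 5.13-fold apart, with the same deposited q. cutl-20, cut-6 and cutl-8 share a feature of the deposited table: their locus is far longer than the gene. The locus of cutl-20 is 713 kb, against an annotated gene span of 5766 bp in WBcel235, and 95 other gene rows carry the same locus. The loci of cutl-8 and cut-6 are 652 and 1320 kb, shared with 149 and 285 other rows.

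None of the 13 genes that fell had a locus over 100 kb. The size of the deposited test statistic was 0.492 for cutl-20, 0.0993 for cut-6 and 0.00646 for cutl-8, whereas it was at least 2.65 for the genes that fell. The same held across the table. Of the tested rows that were at least 4-fold lower in sig-7 RNAi and at or above 0.5 FPKM in the control, 5 of 230 with loci over 100 kb fell, or 2.17%, against 782 of 996, or 78.5%, with loci up to 10 kb. For cutl-20, cut-6 and cutl-8 a q above the threshold is thus what nearly all rows of that kind had at such folds. The files do not say how such loci were formed, and their part in the result was not tested.

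The fold of cutl-20 is uncertain for a second reason. Its exons overlap those of shc-1, a gene for an Shc adaptor protein on the same strand, over 221 bp in WBcel235. shc-1 was listed at 0 in control embryos and had 3.96 FPKM after sig-7 RNAi, opposite to cutl-20, and neither passed. The pair summed to 5.23 FPKM in control embryos against 4.26 FPKM after sig-7 RNAi.

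**Figure D3:**
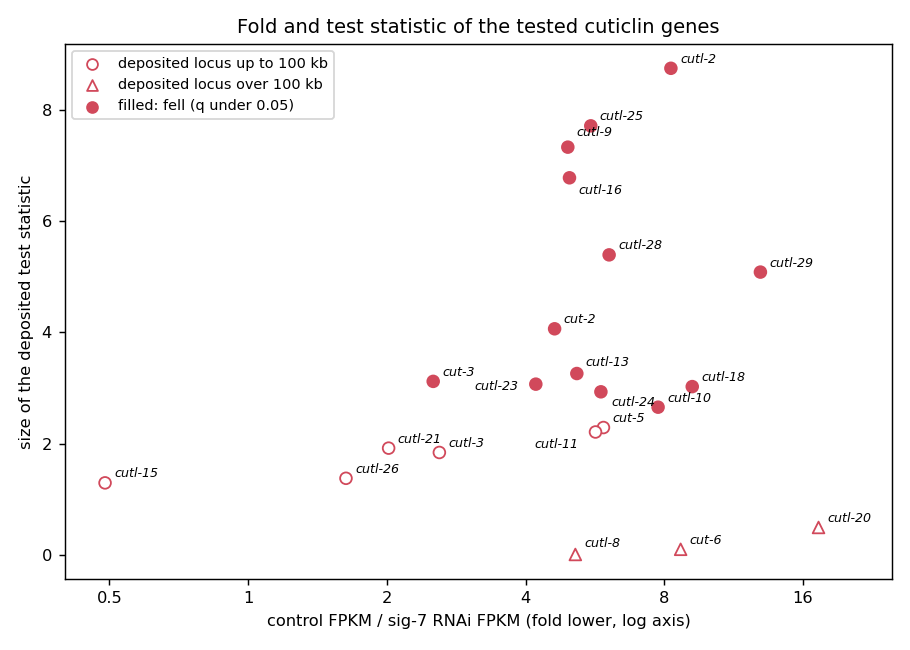
Size of the deposited test statistic against fold (control FPKM over sig-7 RNAi FPKM, log axis) for the 22 tested cuticlins. Filled symbols fell; the triangles, cutl-20, cut-6 and cutl-8, have loci over 100 kb and lie below 0.5 on the vertical axis at folds of 5.13 to 17.3.

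The other 6 tested cuticlins that did not pass were all at or below 1.04 FPKM in both groups. cutl-11 was at 0.523 and 0.0922 FPKM, 5.67-fold apart, with q = 0.0837 in the authors' deposited table. cutl-3 was at 0.718 and 0.276 FPKM, cutl-21 at 0.801 and 0.397 FPKM, and cutl-26 at 1.04 and 0.636 FPKM. Along with cut-5, these had lower values in sig-7 RNAi. cutl-15 went the other way, from 0.260 to 0.530 FPKM, with q = 0.383 in the authors' deposited table. It was the 1 tested cuticlin that exceeded 0.457 FPKM in sig-7 RNAi alone.

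The 12 untested cuticlins were at 0.216 FPKM or less in both groups. In order of control level they were cutl-6, cutl-17, cut-1, cutl-19, cutl-14, cutl-22, cutl-12, cutl-27, cutl-4, cut-4, cutl-7 and cutl-5. Of these, 8 had the lower value in sig-7 RNAi, among them cutl-6 at 0.216 and 0.0692 FPKM and cutl-17 at 0.178 and 0.0726 FPKM. The 4 with the higher value there were cutl-14 at 0.0922 and 0.205 FPKM, cut-4, cutl-7 at 0.00880 and 0.0860 FPKM, and cutl-5, which was listed at 0 in control embryos and had 0.0216 FPKM after sig-7 RNAi. Of the 12, 3 were listed at 0 in 1 group (cut-1, cutl-4 and cutl-5). The loci of cut-1 and cutl-22 are over 100 kb as well. Without the depth of the libraries, no direction can be read from these values.

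At the level of isoforms, 29 of the 34 genes had 1 row each, so the gene and isoform values were the same measurement. Of the 35 transcription start groups of the family, both groups of cutl-8 belong to 1 gene and each other gene had 1. Members with a fallen isoform numbered 13, of which 12 had also fallen in the gene table (16.4% of tested isoforms fell in all). cut-5 was gained and cutl-24 lost. In the start group table the 13 genes were the ones that fell in the gene table (16.9% of tested groups fell in all). cutl-24 had 4 isoforms, and its leading one went from 0.835 FPKM, or 62.9% of the gene, to nearly 0, while another went from 0.399 to 0.228 FPKM and did not pass. The split of so few fragments between isoforms is less certain than the sum of 1.33 and 0.228 FPKM.

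The family is scattered over all 6 chromosomes. Chromosome II held the most members, with 9, of which 5 were tested and 4 fell (cutl-2, cutl-9, cutl-16 and cut-3), and 34.5 FPKM of the family's control total. Chromosome X held 5, all tested and all lower in sig-7 RNAi, of which cutl-29 fell. Among all tested rows on X, 34.4% fell, against 17.5% on chromosome II. The summed level left in sig-7 RNAi ranged from 13.9% on chromosome I, where cutl-20 lies, to 27.6% on chromosome IV. Without cutl-20, whose fold is uncertain, chromosome I was at 27.7%, the highest of the 6 in place of the lowest.

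Some members lie within 20 kb of another family gene or ZP-domain gene, and the levels differed within these pairs. cutl-28 and cutl-26 lie 10664 bp apart on chromosome IV, at 2.07 and 1.04 FPKM in the control, and in sig-7 RNAi cutl-26 held the higher value, at 0.636 against 0.341 FPKM. cut-2 lies 9085 bp from the row that holds cutl-1, which was untested, while cut-2 was at 4.83 FPKM in the control. cutl-27, untested at 0.0505 FPKM, lies 2210 bp from let-653, a further ZP-domain gene that was at 7.87 FPKM in the control.

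In the WBcel235 annotation, which matched all 34 names, the members differ widely in size, with coding sequences of 215 (cut-2) to 969 codons (cutl-27) and 2 to 16 exons. The median was 445 codons for the 13 genes that fell, 405 for the 9 that did not pass and 457 for the 12 untested genes, so the 3 classes had similar coding lengths at their medians. FPKM depends on fragments per length, and 2 long genes, cutl-18 and cutl-23 (801 and 773 codons), passed from control levels lower than that of the shorter cut-5 (395 codons). Other members went otherwise. cutl-10 (403 codons) also passed from a lower level than cut-5, and the longer cutl-21 (633 codons) did not pass from 0.801 FPKM. The part of length in the calls was not tested.

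The sources used here do not state whether strand entered the authors' counting, so exons shared with a gene on the other strand make a value less certain. This applies to 5 of the 13 genes that fell: cut-3, cutl-13, cutl-18, cutl-23 and cutl-29. The overlaps are 9 to 94 bp long. The partner of cut-3 is evl-20, which encodes an ADP-ribosylation-factor-like GTPase and rose from 14.4 to 26.5 FPKM over a 9 bp overlap. rev-3, which encodes the catalytic subunit of DNA polymerase zeta, overlaps cutl-23 by 25 bp and did not pass, at 1.21 and 1.59 FPKM. The other 8 genes that fell, among them the 4 most abundant, overlap no other annotated exon. Of the 9 tested genes that did not pass, 4 share exons with a gene on the other strand: cut-5, cutl-8, cutl-11 and cutl-15. The 1 tested cuticlin with the higher value in sig-7 RNAi, cutl-15, shares 66 bp with T21B10.4, at 14.4 and 19.6 FPKM. cutl-8 shares 42 bp with T01G9.2, at 41.3 and 44.8 FPKM.

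Genes that build the same layers were counted from lists chosen with earlier results of these data known. Over all tested genes 17.3% fell. Of 6 other ZP-domain genes of epidermis and sensory organs, 5 were tested and 5 fell. The largest folds were those of fbn-1 (fibrillin-like, 22.1-fold), let-653 (11.4-fold) and noah-1 (10.3-fold), and the summed level went from 258 FPKM, 3.45 times that of the 34 cuticlins, to 25.2 FPKM. Of 9 apical matrix genes without a ZP domain that were found, 7 fell, with the megalin gene lrp-1 13.9-fold, lpr-1 10.4-fold and the lipocalin gene lpr-3 9.86-fold lower. Of 38 tested cuticle collagen genes (172 rows), 28 had the lower value in sig-7 RNAi and 10 the higher. Of the 38, 10 fell, or 26.3%, beside 17.3% of all tested genes. Some collagen genes that did not pass lie in loci over 100 kb, where few rows passed. dpy-14 and dpy-3, named after their values were seen, are among them. The summed level of the 172 rows went from 699 to 123 FPKM, or 17.6% of the control. The fallen ones included sqt-3, which was 12.3-fold lower, and dpy-2, which was 9.52-fold lower. Also among them was col-99 (13.7-fold), which encodes a transmembrane collagen and not a cuticle component. The difference between the cuticlin count and any of these counts was not tested.

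Genes for enzymes that act on matrix proteins were counted too, beside the 17.3% of all tested genes that fell. Of 3 tested proprotein convertase genes, which encode proteases that cut precursors, kpc-1 fell from 41.2 to 15.7 FPKM. bli-4, the furin-like convertase gene of the epidermis, named here after its values were seen, was at 35.0 and 40.5 FPKM with q = 0.558 in the authors' deposited table. Of 5 tested genes in the list of cross-linking and collagen-modifying enzymes, 4 fell, namely pxn-2, a peroxidasin gene of the basement membrane (33.6-fold), phy-2, a prolyl 4-hydroxylase subunit gene (7.17-fold), the dual oxidase gene bli-3 (2.51-fold) and 1 further gene. Of 10 tested transcription factor genes of the epidermis and moulting, 5 fell. The largest folds were in elt-3 (12.6-fold), ceh-16 (6.18-fold) and blmp-1 (5.93-fold).

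**Figure D4:**
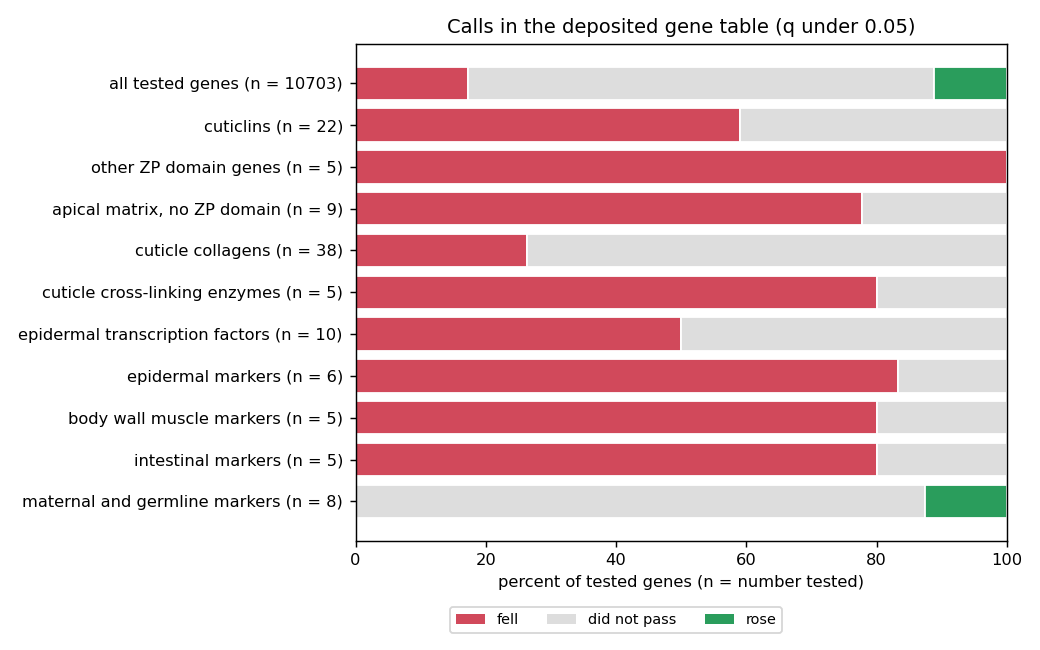
Share of tested genes that fell (red), rose (green) or did not pass (grey) in the authors' deposited gene table, for all tested genes, the 22 tested cuticlins and 9 of the lists named in the text, with the number tested in brackets; the convertase, pharyngeal and neuronal lists are not drawn. The cuticlin bar shows 13 of 22 fallen and 0 risen, and the maternal and germline list shows 0 of 8 fallen. In that list pos-1, oma-2 and pie-1 lie in loci over 100 kb, where few rows passed. The cuticlin, apical matrix, collagen, cross-linking and transcription factor bars also hold tested genes in such loci, and none of these genes passed.

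In bulk embryos, fewer epidermal cells and less cuticlin RNA per cell cannot be told apart, so marker lists of several cell types are set beside the result. Of 6 epidermal marker genes 5 fell, and their summed level went from 154 to 59.1 FPKM. lin-26, an early epidermal fate gene named after its values were seen, did not pass, at 35.5 and 30.5 FPKM. Of 5 body wall muscle markers 4 fell (31.6 and 27.5 FPKM in sum), and hlh-1, the muscle fate gene, likewise named, did not pass, at 14.9 and 22.4 FPKM. Of 5 intestinal markers 4 fell (27.3 and 8.62 FPKM), of 3 tested pharyngeal markers 1 fell (28.9 and 9.08 FPKM over all 4), and of 5 neuronal markers 2 fell (94.9 and 90.5 FPKM). Most of the neuronal sum came from snb-1 (57.6 and 68.6 FPKM) and unc-119 (33.9 and 21.0 FPKM), named after their values were seen, and neither passed. unc-119 has the deposited locus of cut-6. The pharyngeal markers tnt-4 (0.649 and 0.0325 FPKM) and ceh-22 (1.07 and 0.102 FPKM), also named after their values were seen, did not pass. tnt-4 lies in a locus over 100 kb. unc-86 and unc-3, neuronal transcription factor genes, fell from 2.03 to 0.420 FPKM and from 0.830 to 0.231 FPKM. Each of these 5 lists thus held at least 1 marker that fell, in the pharyngeal list pha-4 alone. Over all tested genes 17.3% fell, so 1 such marker in a list says little of a tissue.

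Maternal and germline transcripts did not share the direction. Of 8 such markers 0 fell and nos-2 rose, where 17.3% of all tested genes fell and 11.2% rose. The sums were 662 and 863 FPKM, and pos-1 alone was at 274 and 412 FPKM (q = 0.772 in the authors' deposited table). pos-1, oma-2 and pie-1, named after their values were seen, lie in loci over 100 kb. Of all tested rows with such loci 0.658% passed in either direction, so a marker there that did not pass says little. With the totals of both groups made equal, the second sum was 511 FPKM, so the direction of that list turns on the scaling. The rise of nos-2, from 55.5 to 94.6 FPKM, was 1.70-fold, where the whole table summed to 1.69 times the control. The rise of nos-2 thus turns on the scaling too. The 5 yolk protein genes found, markers of the adult intestine, were untested, at 0.163 and 0.291 FPKM in sum. No marker of any list was listed at 0 in both groups. The part of cell type makeup and of embryo age in the cuticlin values was not tested.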

How the data were processed

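RNA was sequenced from 4 libraries of mixed early embryos, 2 of control RNAi and 2 of sig-7 RNAi, grouped by their titles. Per the labels' protocols, ribosomal RNA was removed from 1 µg of RNA with a mammalian depletion kit before stranded library preparation. Per the submitters' processing notes the build was ce10 and the tools included TopHat2, Cufflinks 2.1.1 and Cuffdiff 2.0.2. The annotation, the settings and the handling of strand were not given in the sources used here. From the authors came 3 deposited Cuffdiff tables (37812 genes, 44542 isoforms, 38916 transcription start groups). Per the file headers each holds 1 pooled FPKM value per group, a log2 ratio, the test's statistic and its p-value and q-value. The deposited p-value rests on the authors' own model of the spread between libraries, which may be technical, and no test of that spread can be made from pooled values. The depth of each library is unknown, so no interval or floor is given.

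The deposited q-values equalled a Benjamini-Hochberg adjustment over the 10703 tested gene rows to within 1.55e-06. The deposited log2 ratios equalled those of the FPKM values to within 1.43e-05. Folds here are ratios of the deposited FPKM values. Medians used log2 of FPKM with a pseudocount of 1. Calls were q under 0.05. Positions start from base 1 on ce10, and gene lengths, strands and exon overlaps came from the WBcel235 annotation, matched by name, with no WBcel235 position printed or set against a ce10 position. All cuticlin genes are accounted for, and from each other list at most 3 called genes per direction, those with the largest folds, are named, along with those said to be named after their values were seen. The members and lists were chosen with earlier results of these data known. Alternatives were a q of 0.01, a floor of 1 FPKM, a 2-fold threshold, equal total FPKM, a pseudocount of 0.1 and the other tables. Python 3.11.15, pandas 2.3.3, numpy 2.4.6 and matplotlib 3.10.9 were used.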

Additional observations from a re-analysis of the deposited data

How the results depend on the processing

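The count of 13 fallen cuticlin genes was 9 at q under 0.01 and 10 with at least 1 FPKM in 1 group. It was 13 with a 2-fold threshold and with equal total FPKM. Chosen after seeing the data, the isoform table, the start group table and leaving out loci over 100 kb each gave 13 too. In each setting 0 rose. Most settings that gave 13 could hardly have changed the count. The smallest fold of the 13 was 2.52, and 0 of them had a locus over 100 kb. Equal totals leave q as it was and only deepen the falls. The start groups of these genes hold the gene FPKM values. The median log2 ratio of the tested cuticlins, -0.76 with a pseudocount of 1 FPKM, was -2.01 with a pseudocount of 0.1, -1.59 with at least 1 FPKM in 1 group, -0.86 with equal total FPKM and -0.78 without loci over 100 kb. The median of all tested genes was -0.04, 0.05 and -0.55 under the first 3. The ratio of the family's summed FPKM, 0.195, was 0.198 without cutl-25, 0.115 with equal total FPKM and 0.206 without loci over 100 kb. The 39 alternative log2 ratios computed for the 13 fallen genes ran from -4.45 to -2.09 with equal total FPKM and from -2.49 to -0.47 with a pseudocount of 1. None of them could have crossed 0, so their sign is no check. A pseudocount keeps the sign, equal totals lower every ratio, and the isoforms of a gene sum to its gene value. No replicate could be left out, because the deposited values are pooled. No paired analysis was possible because the columns carry no replicate. Precision is limited by the unknown depth, most for members under 1 FPKM.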

Other observations

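Among the other listed matrix and epidermal genes, 15 tested genes lay in loci over 100 kb. Of these, 11 had the lower value in sig-7 RNAi and 4 the higher, and 0 passed by Cuffdiff in the authors' deposited table, with 1 at an unadjusted p under 0.05. The genes named next were picked after their values were seen. dpy-14, a cuticle collagen gene, had the highest level of the 15, at 211 and 40.9 FPKM, with q = 0.184 in the authors' deposited table. dpy-3, a further cuticle collagen gene, was at 19.1 and 2.24 FPKM, with q = 0.0942 in the authors' deposited table. grh-1, a Grainyhead transcription factor gene with the same deposited locus as cutl-20, went from 1.75 to 0.395 FPKM, with q = 0.954 in the authors' deposited table. dpy-18, a prolyl 4-hydroxylase subunit gene with the locus of cut-6, was at 39.1 and 17.8 FPKM, with q = 0.899 in the authors' deposited table. mlt-10, a moulting gene, was at 6.50 and 1.79 FPKM, with q = 0.768 in the authors' deposited table. Over the whole gene table, 2127 tested rows had loci over 100 kb and 14 of them, or 0.658%, passed in either direction, against 3031 of 8576, or 35.3%, with shorter loci. The part of such loci in the counts of calls for other gene families was not tested.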
